A study of Caenorhabditis elegans with 2 samples.

Results

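Listed regions whose summit lay inside the coding sequence of protein-coding genes were taken from a chromatin immunoprecipitation experiment with sequencing in whole first-stage (L1) larvae of the nematode Caenorhabditis elegans. A region was kept when its summit fell in an annotated coding exon, more than 500 bp from every annotated transcript start and more than 200 kb from the ends of the chromosome. This position rule used no signal value. It kept 4962 of 30000 regions in replicate 1 and 5665 of 30000 regions in replicate 2. The same rule kept 31 of the 193 regions of the pooled list and 2 of the 18 regions of the optimal IDR list, where IDR is the irreproducible discovery rate, a measure of how far replicate rankings agree.

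Both replicates came from strain OP196, of genotype unc-119(ed3) III; wgIs196, in which an eGFP-SPTF-1 fusion is made from an inserted transgene. The larvae were of both sexes and pooled as whole animals, so the cells in which a region was bound cannot be told apart. The labels name the antibody only by its target, sptf-1, and state neither the promoter of the transgene nor an age beyond the larval stage. The samples are 2 biological replicates of 1 group, and no list from another strain, stage or untagged control was analysed here. Therefore no test between conditions was possible, and every share below describes these lists, with exact Clopper-Pearson intervals at 95% that cover counting error only. All intervals below treat regions as separate counts, although some regions of the replicate 2 list overlap each other. The lists hold regions and no expression values, so the labelled stage and tissue could not be checked against marker genes.

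SPTF-1 belongs to the Sp family of zinc finger transcription factors, whose members in mammals bind GC boxes, short sequences rich in G and C, most often in promoters. Coding exons in C. elegans are richer in G and C than the introns and intergenic DNA around them, and they hold fewer repeats. Lists of peaks and background are deliberately long, since IDR needs weak regions to compare rankings. Widths were fixed within a list, at 336 bp for replicate 1, 350 bp for replicate 2 and 344 bp for the combined lists. Read depth was unknown, because the lists hold no read counts.

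The coding sequence under some of the regions described below is shown first, on the coding strand from 5′ to 3′, as the summit base and 50 bases on either side of it. Capitals mark bases in the coding sequence of the host gene, and lower case marks intron. M28.4 and C14A6.6 are shown because they held the optimal IDR peaks, cdh-12 and nas-8 because they were among the highest signals of the pooled coding regions, rpl-3 because it had the second best mean rank of the coding pairs listed in both replicates, and ttn-1, Y69H2.9 and srt-35 because they passed the q threshold in 1 replicate. The first 5 windows are centred on pooled summits, the ttn-1 window on the summit of replicate 1, and those of Y69H2.9 and srt-35 on summits of replicate 2.
M28.4 (chrII:10645965-10646065, plus strand): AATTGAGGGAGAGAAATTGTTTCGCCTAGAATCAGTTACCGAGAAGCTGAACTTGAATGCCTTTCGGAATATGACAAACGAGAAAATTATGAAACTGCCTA
C14A6.6 (chrV:18165461-18165561, minus strand): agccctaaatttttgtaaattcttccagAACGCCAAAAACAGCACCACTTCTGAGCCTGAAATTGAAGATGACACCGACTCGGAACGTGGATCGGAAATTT
cdh-12 (chrIII:1177973-1178073, plus strand): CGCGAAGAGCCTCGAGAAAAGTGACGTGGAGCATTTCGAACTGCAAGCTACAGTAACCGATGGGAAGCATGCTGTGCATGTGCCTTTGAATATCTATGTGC
nas-8 (chrIV:7116967-7117067, plus strand): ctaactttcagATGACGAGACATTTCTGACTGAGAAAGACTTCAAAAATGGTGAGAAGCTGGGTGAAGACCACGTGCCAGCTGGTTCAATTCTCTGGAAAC
rpl-3 (chrIII:3868580-3868680, plus strand): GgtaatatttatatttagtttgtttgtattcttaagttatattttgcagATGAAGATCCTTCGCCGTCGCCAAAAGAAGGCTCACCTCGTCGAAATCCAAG
ttn-1 (chrV:6153328-6153428, minus strand): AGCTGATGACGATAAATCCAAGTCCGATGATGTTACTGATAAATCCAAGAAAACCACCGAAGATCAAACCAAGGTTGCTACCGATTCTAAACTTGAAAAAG
Y69H2.9 (chrV:18704992-18705092, plus strand): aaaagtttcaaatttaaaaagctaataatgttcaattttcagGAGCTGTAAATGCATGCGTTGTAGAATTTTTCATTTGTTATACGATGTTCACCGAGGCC
srt-35 (chrV:4262677-4262777, minus strand): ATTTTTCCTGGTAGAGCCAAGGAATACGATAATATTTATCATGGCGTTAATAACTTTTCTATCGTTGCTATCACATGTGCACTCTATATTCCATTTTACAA
The windows of M28.4, cdh-12, ttn-1 and srt-35 lay in coding sequence over their full length. Those of C14A6.6, nas-8, rpl-3 and Y69H2.9 cross the border of an exon, and the GC content of the windows ran from 31.7% at Y69H2.9 to 49.5% at cdh-12. The 31 bases at the centre of the C14A6.6 window occur 3 times in the genome, and those of the other windows occur 1 time. Coordinates are on ce11, which is the WBcel235 assembly, and the sequences are from RefSeq's copy of it.

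The first question was whether coding sequence held more of the listed regions than its share of the genome. It held 16.5% of the regions of replicate 1 (16.1 to 16.97%) and 18.9% of those of replicate 2 (18.4 to 19.3%), against 16.4% of all bases of the nuclear chromosomes that met the same rule. The interval of replicate 1 therefore contained the share of all bases, and replicate 2 lay 2.51 percentage points above it. That share counts repeated sequence too, of which the lists held less. Words of 31 bases found more than 1 time in the genome made up a mean of 1.74% and 1.83% of the listed regions. In the genome they made up 8.73% of all words and 3.76% of those at bases that met the rule. A genome share without repeated sequence was not calculated. Over both replicates the mean was 17.7% ± 1.66 (SD, n = 2). The excess of replicate 2 came beside fewer regions outside genes, where it had 17.9% of its list (17.5 to 18.4%) and replicate 1 had 18.95% (18.5 to 19.4%), against 20.6% of the genome. In introns replicate 1 had 23.2% and replicate 2 had 21.6%, against 22.7% of the genome. Regions within 500 bp of a start made up 33.9% and 34.4%, against 33.4% of the genome.

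**Figure D1:**
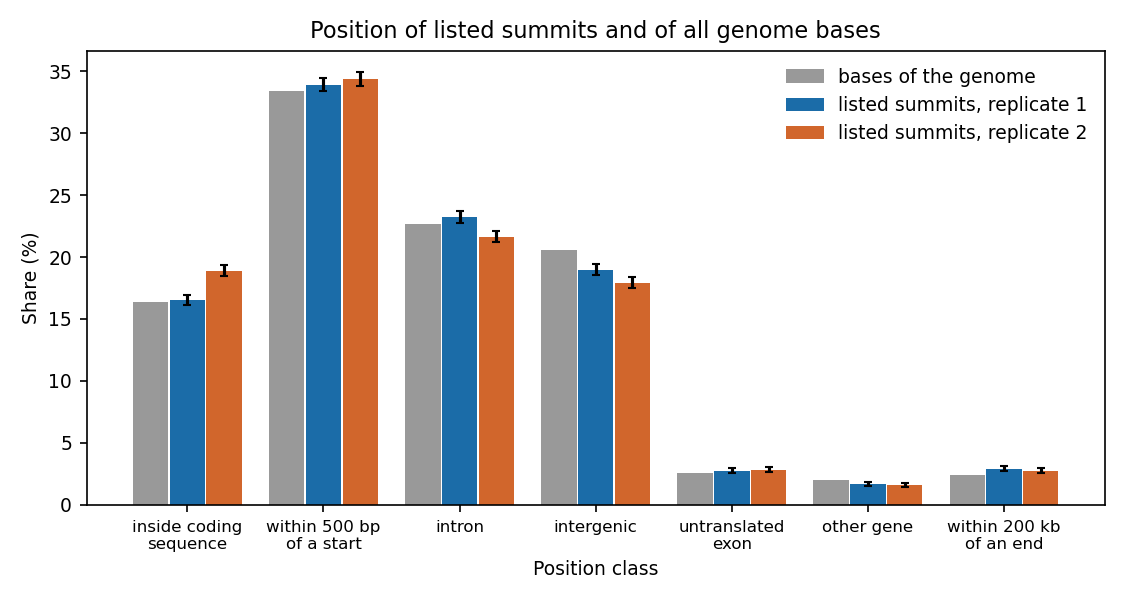
Share of each list in each class of position (percent of regions, with exact 95% intervals), beside the share of genome bases in that class. Coding sequence is the class with the largest gap between the replicates, at 16.5% in replicate 1 and 18.9% in replicate 2 against 16.4% of the genome.

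Summits in coding sequence numbered 7579 in replicate 1 and 8453 in replicate 2 before the distance limits. The limit at starts removed 2451 and 2630 of them, and the limit at chromosome ends a further 166 and 158. Within 100 bp outside the limit at starts, replicate 1 had 380 coding summits with a median rank percentile of 54.1 and replicate 2 had 399 with 53.9, where 100 is the highest signal of the list. Within 100 bp inside it, the numbers were 334 with 48.5 and 385 with 55.1. Just outside the limit at the ends, 100 to 200 kb away, 95 and 80 coding summits had a median percentile of 45.7 in both replicates. Just inside it, at 200 to 300 kb, 69 and 78 had 58.2 and 56.0.

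The coding regions were spread over all 6 nuclear chromosomes and over many genes. Per 10 kb of bases that met the rule, replicate 1 had 3.02 coding regions and replicate 2 had 3.45. By chromosome the density ran from 2.81 on II to 3.21 on X in replicate 1, and from 3.26 on II to 3.63 on III in replicate 2. Chromosome II was lowest in both replicates. Host genes numbered 3998 in replicate 1 and 4359 in replicate 2, of 16952 protein-coding genes with at least 1 base that met the rule. Of the hosts, 3284 and 3449 had 1 region, and 21 and 42 had 5 or more. The 1716 genes that were hosts in both replicates made up 42.9% of the hosts of replicate 1 and 39.4% of those of replicate 2. Of all 16952 genes, 23.6% were hosts in replicate 1 and 25.7% in replicate 2. The host share rose with the bases that met the rule. For genes with 1 to 500 such bases it was 8.40% and 8.34%, and over 5000 it was 82.1% and 91.8%. Shared hosts were not compared at equal numbers of such bases.

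Most coding regions reached beyond the exon that held their summit. The coding exon at the summit had a median length of 266 bp in replicate 1 and 286 bp in replicate 2, shorter than the regions themselves. Regions with all their bases in coding sequence numbered 829 (16.7%) in replicate 1 and 1090 (19.2%) in replicate 2. The median summit lay 59.9% of the way along the coding sequence in replicate 1 and 59.7% in replicate 2, where the limit at starts removes the beginning of most genes. The nearest transcript start was at a median distance of 1360 bp and 1364 bp.

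The second question was whether coding regions ranked higher by signal than the others. Their medians were higher by a small margin in both replicates, with no test over regions. The median signal, as the authors' peak caller gave it, was 9.84 for coding regions and 9.77 for all others in replicate 1, and 8.24 against 8.10 in replicate 2. On the scale of rank percentiles this was 50.9 against 49.8 in replicate 1 and 51.9 against 49.6 in replicate 2, a difference of 1.72 ± 0.883 (SD, n = 2). The margin was not particular to this set. Coding summits left out by the limit at starts had medians of 51.3 and 52.8, and regions near chromosome ends had 55.7 and 51.5. Within 5 bins of GC content the difference between coding and other regions had a mean of 1.55, with each bin counted alike. From the poorest bin to the richest it was 1.65, 4.95, 0.410, 0.228 and 0.405 in replicate 1. In replicate 2 it was 2.94, 3.64, 0.355, 1.07 and −0.0983. The 2 poorest bins raised the mean but held few coding regions, 92 and 431 in replicate 1 and 120 and 525 in replicate 2.

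The top of the lists held no larger share of coding regions than the rest. Of all regions, 1.67% were in the top 500 by construction in each replicate. Among coding regions the top 500 held 73 in replicate 1, which is 1.47% (1.15 to 1.85%), and 89 in replicate 2, which is 1.57% (1.26 to 1.93%). Among all other regions it held 1.71% and 1.69%, within those intervals. In the top 5000 the order turned, with 869 coding regions in replicate 1 (17.5%) and 995 in replicate 2 (17.6%), against 16.5% of the other regions in both. Over bins of 3000 regions by rank, the coding share ran from 15.8 to 17.8% in replicate 1 and from 17.6 to 20.2% in replicate 2. The lowest bin of replicate 1 was the last, with ranks from 27001, and the highest of replicate 2 was the first, but neither list showed a steady trend.

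**Figure D2:**
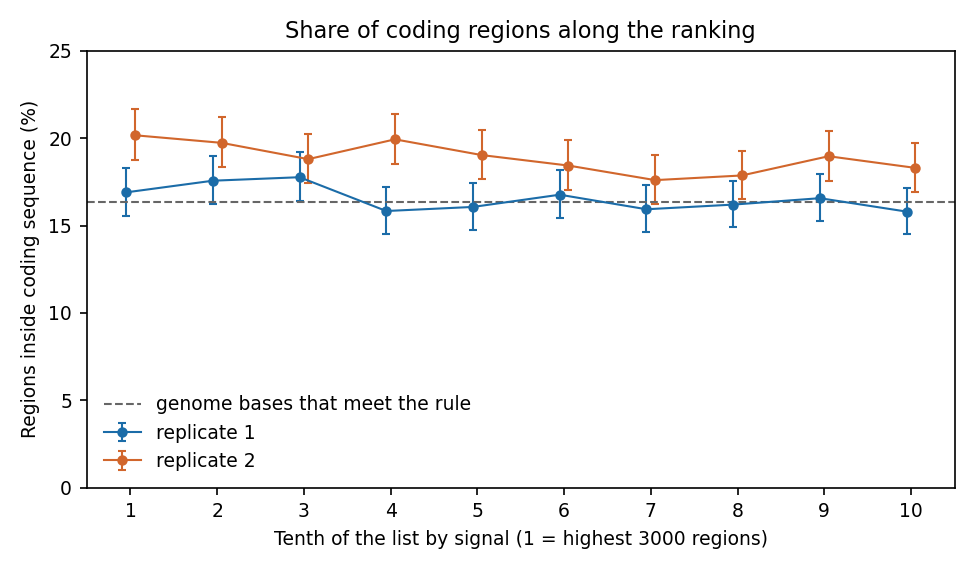
Share of coding regions (percent of the regions in each bin of 3000, with exact 95% intervals) from the highest signals to the lowest, per replicate, with the genome share as a line. Replicate 1 stayed between 15.8 and 17.8%, near the genome share of 16.4%, and replicate 2 between 17.6 and 20.2%, above it in every bin.

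The third question was base composition, measured as G+C in the summit base and 50 bases on either side. Coding regions had a median GC content of 40.6% in replicate 1 and 41.6% in replicate 2, against 33.7% and 34.7% for all other regions. The difference was 6.93 percentage points in each replicate, with a spread of 0 because medians of such windows move in steps of 1 base. Windows at all genome bases that met the rule also had a median of 40.6%, and all windows of the genome had 34.7%. The coding regions of replicate 1 thus had the median of coding sequence in general, and that of replicate 2 was higher by 1 base per window. The mean was 40.9% ± 6.42 (SD over regions) in replicate 1 and 42.0% ± 6.68 in replicate 2. Windows at genome bases that met the rule had a mean of 41.3%, above that of replicate 1 and below that of replicate 2.

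The replicates parted in coding sequence rich in G and C. In coding sequence with a GC content under 30%, replicate 1 had 3.03 coding regions per 10 kb (2.62 to 3.49, exact Poisson interval at 95%) and replicate 2 had 2.61 (2.23 to 3.04). From 35 to 40% they had 3.12 (2.95 to 3.29) and 3.22 (3.05 to 3.39). From 45 to 50% replicate 1 had 3.01 (2.81 to 3.22) and replicate 2 had 3.89 (3.66 to 4.12). At 50% and over, replicate 1 had 2.40 (2.17 to 2.65) and replicate 2 had 4.22 (3.91 to 4.55). The intervals overlap in the poorest bins and do not in the richest, and the density of replicate 2 was higher in each bin of GC content than in the one before.

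Bases outside the coding set showed the same split, with a smaller gap in replicate 2. Per 10 kb of other bases, replicate 1 had 2.96 regions under 30% GC and 2.26 at 50% and over, and replicate 2 had 2.60 and 3.24. In replicate 2 at 50% and over, coding bases thus carried 4.22 regions per 10 kb against 3.24 on other bases, a difference that was not tested. The cause of the split by GC content was not tested.

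**Figure D3:**
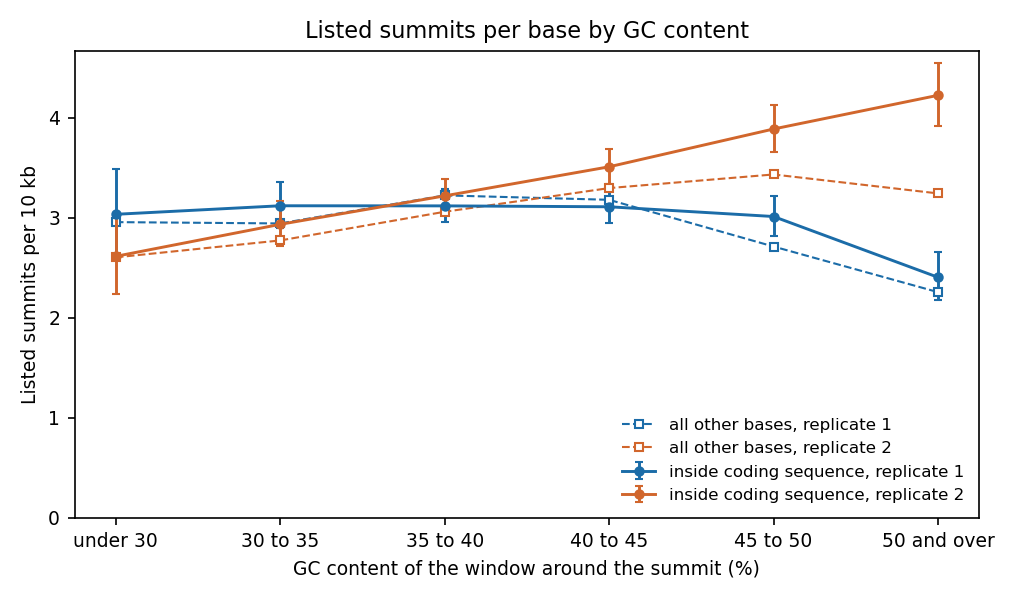
Listed summits per 10 kb of bases, by GC content of the window around them, for bases that met the coding rule (filled, with exact 95% Poisson intervals) and all other bases (open). In coding sequence replicate 1 had 2.40 and replicate 2 had 4.22 at a GC content of 50% and over.

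Repeats were rarer in coding regions than in the other regions. Bases soft-masked as repeats made up a mean of 12.4% of the window around a coding summit in replicate 1 and 10.9% in replicate 2, against 39.1% and 36.5% around other summits. Of the 31-base words of whole coding regions, 0.756% and 0.759% occurred more than 1 time in the genome, against 1.93% and 2.08% in other regions. In the genome, 3.76% of such words at bases that met the rule and 8.73% of all words occurred more than 1 time, so coding regions lay below the first share and other regions below the second. The GC box core GGGCGG was searched on both strands in the window around the summit. It was present at 50 coding summits of replicate 1, which is 1.01% (0.749 to 1.33%), and at 75 of replicate 2, which is 1.32% (1.04 to 1.66%). Other regions had it at 1.57% and 1.77% of summits, windows at all bases that met the rule at 1.22%, and all windows of the genome at 1.61%. The coding share was within counting error of its genome windows in both replicates. Of the 31 pooled coding regions 0 had these letters in the window, where 3 counts allow up to 9.68%, and of the 162 other pooled regions 7 had them.

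The last question was how many coding regions were listed in both replicates. Of all regions, 27.9% of replicate 1 and 28.1% of replicate 2 shared at least 1 bp with a region of the other list. Among coding regions of replicate 1 the share was 30.05% (28.8 to 31.3%), above the 27.5% of its other regions (26.9 to 28.1%). Among coding regions of replicate 2 it was 26.8% (25.6 to 27.9%), below the 28.4% of its other regions (27.8 to 29.0%). The overlapping coding regions were close in number, 1491 of 4962 in replicate 1 and 1516 of 5665 in replicate 2. So were the overlapping other regions, 6886 of 25038 and 6910 of 24335. The shares thus differed mostly through the number of coding regions in each list. The differences had opposite signs, and their mean was 0.456 ± 2.96 percentage points (SD, n = 2). The mean difference was thus smaller than the spread between replicates. The share followed GC content in replicate 1, where it was 24.1% of coding regions under 30% GC and 36.5% at 50% and over. In replicate 2 it was 31.5% and 26.01%. The rise in replicate 1 was not particular to coding regions. Over the 5 bins of GC content, the share of its other regions that overlapped was 25.7% in the poorest bin and 32.02% in the richest. Coding regions of replicate 1 had 19.6% and 32.99% in the same bins.

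Among the overlapping coding regions, 1009 of replicate 1 met a coding region of replicate 2, which is 67.7% of the 1491 that overlapped any region. The median distance between the summits of such pairs was 86 bp. Spearman's rho of the signals over these pairs was 0.0340, and 0.0407 over the 1017 pairs found from replicate 2, beside 0.0227 and 0.0180 for the other overlapping regions. These are descriptions over pairs of regions that share an input file, with no test.

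High ranks in both replicates were rare. Of the coding pairs, 1 was in the top 500 of both lists, 3 in the top 1000 of both and 36 in the top 5000 of both. For all regions of replicate 1, with any overlapping region of replicate 2 as partner, these numbers were 8, 18 and 326. A coding pair needs coding regions on both sides, so coding regions with another kind of partner are left out of the first counts. The coding pair in both top 500 lists lay in exon 10 of 14 of M28.4. It had a signal of 20.5 and rank 155 in replicate 1, and a signal of 17.4 and rank 131 in replicate 2, with summits 93 bp apart. The files and tables used here give no function for M28.4.

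Of the pairs with the next best mean ranks, the first lay in rpl-3, which encodes a protein of the large ribosomal subunit, at ranks 142 and 816. F36G3.1 followed at ranks 126 and 1464. The pair in nas-8, an astacin-type metalloprotease gene, had ranks 927 and 680 and summits 3 bp apart. T10G3.8 had ranks 1187 and 1208, and lrk-1, the worm relative of the LRRK kinases, had 805 and 1717. T01D3.1 had ranks 2197 and 364, the innexin gene inx-10, of the gap junction family, had 496 and 2126, nhr-107 had 2593 and 72, and C55C2.3 had 71 and 2646. Of these 10 pairs, M28.4 alone had both ranks within 500. M28.4, rpl-3, nas-8, T01D3.1, inx-10 and nhr-107 were also in the pooled list.

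Regions past the q threshold were few. Of all regions, 0.133% in replicate 1 and 0.0967% in replicate 2 had a deposited q under 0.05. Among coding regions there were 6 (0.121%) and 5 (0.0883%), so coding sequence held about its share. In replicate 1 they lay in C14A6.6 with a signal of 24.3, oac-4 with 23.8, clec-36 with 23.8, Y17D7C.6 with 23.5, ttn-1 with 23.5 and F53C3.3 with 23.5. Of their hosts, oac-4 belongs to a family of predicted O-acyltransferases, clec-36 to the C-type lectins, and ttn-1 encodes a titin-like giant muscle protein. In replicate 2 they lay in Y69H2.9 with a signal of 22.8, srt-35 with 21.5, trpp-8 with 21.1, fbxa-115 with 20.4 and B0507.2 with 20.2. Here srt-35 encodes a predicted chemoreceptor, trpp-8 a subunit of the TRAPP vesicle-tethering complex, and fbxa-115 an F-box protein.

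These regions were high in 1 replicate each. Of the 6 in replicate 1, the region in C14A6.6 overlapped a region of replicate 2, at rank 18103 with a signal of 7.61, and the other 5 overlapped none. Of the 5 in replicate 2, the region in srt-35 overlapped a region of replicate 1, at rank 14056 with a signal of 9.99, and the other 4 overlapped none. Of all regions, 27.9% in replicate 1 and 28.1% in replicate 2 overlapped the other list. In the highest 3000 the share was 36.5% of coding and 31.4% of other regions in replicate 1, and 31.9% and 32.8% in replicate 2. The 6 and 5 regions are too few to set apart from these shares. The region of Y69H2.9 at chrV:18704867-18705216 and that of Y17D7C.6 at chrV:18711443-18711778 lay close together on chromosome V, the first listed in replicate 2 and the second in replicate 1. Replicate 2 also listed a region of Y69H2.9 at chrV:18705073-18705422, rank 909, that overlapped the first.

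The pooled list, derived from the alignments of both replicates, held 31 coding regions, 16.1% of its 193 (11.2 to 22.02%). The interval contains the genome share. Their median signal was 31.3 against 30.8 for the other pooled regions, and their median GC content was 40.6% against 36.6%. With the deposited column of the pooled list read as −log10 q, 0 of 193 regions had a q under 0.05. The lowest value among the coding regions was 0.176, at M28.4. At T01D3.1 the value was 1.07, above what a q can reach, so these values are scores and not q-values. A further 16 pooled summits in coding sequence lay too near a start (13) or a chromosome end (3). The optimal IDR list held M28.4 at chrII:10645843-10646186 with a signal of 37.4 and C14A6.6 at chrV:18165339-18165682 with 37.1. One further coding peak of that list, in Y44E3A.1, lay 114 bp from a start and was left out by the rule.

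After these 2 regions, the pooled coding regions of highest signal lay in cdh-12, a cadherin gene, with a signal of 33.5, nhr-107, a nuclear hormone receptor gene, with 32.6, nas-8 with 32.5 and the spermatogenesis gene spe-46 with 32.3. Y17D7C.6 followed with 32.1, then trhr-1, a receptor gene related to that of thyrotropin-releasing hormone, with 31.9, T01D3.1 with 31.6, T22F7.1 with 31.5 and ZC84.1 with 31.5. ZK662.6 had 31.4, otub-2 had 31.4, the cytochrome P450 gene cyp-13B1 had 31.4 and rpl-3 had 31.3. From cdh-12 to rpl-3 the signals lay close together, all below those of M28.4 and C14A6.6.

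All 31 pooled coding regions overlapped a region of replicate 1, and 26 overlapped a region of replicate 2. Of the 162 other pooled regions, 159 and 148 did so. The coding regions were in the top 500 of replicate 1 in 13 cases, in the top 500 of replicate 2 in 9, and in both at M28.4. The same counts are not given for the 162 other pooled regions, so they cannot be read as particular to coding regions. The cdh-12 region ranked 10887 in replicate 1 with a signal of 10.7 and 150 in replicate 2 with 17.2. The nhr-107 region ranked 2593 with 14.4 and 72 with 18.3, and that of T22F7.1 ranked 8202 with 11.5 and 52 with 19.1. In the other direction, otub-2 ranked 95 in replicate 1 with 21.5 and 9578 in replicate 2 with 9.28. The regions of spe-46, rank 49, and Y17D7C.6, rank 37, overlapped none in replicate 2. Of the 26 found in both, 14 ranked higher in replicate 1 and 12 in replicate 2. Since the pooled list draws on both alignments, a region high in either could enter it, and these counts carry no test.

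**Figure D4:**
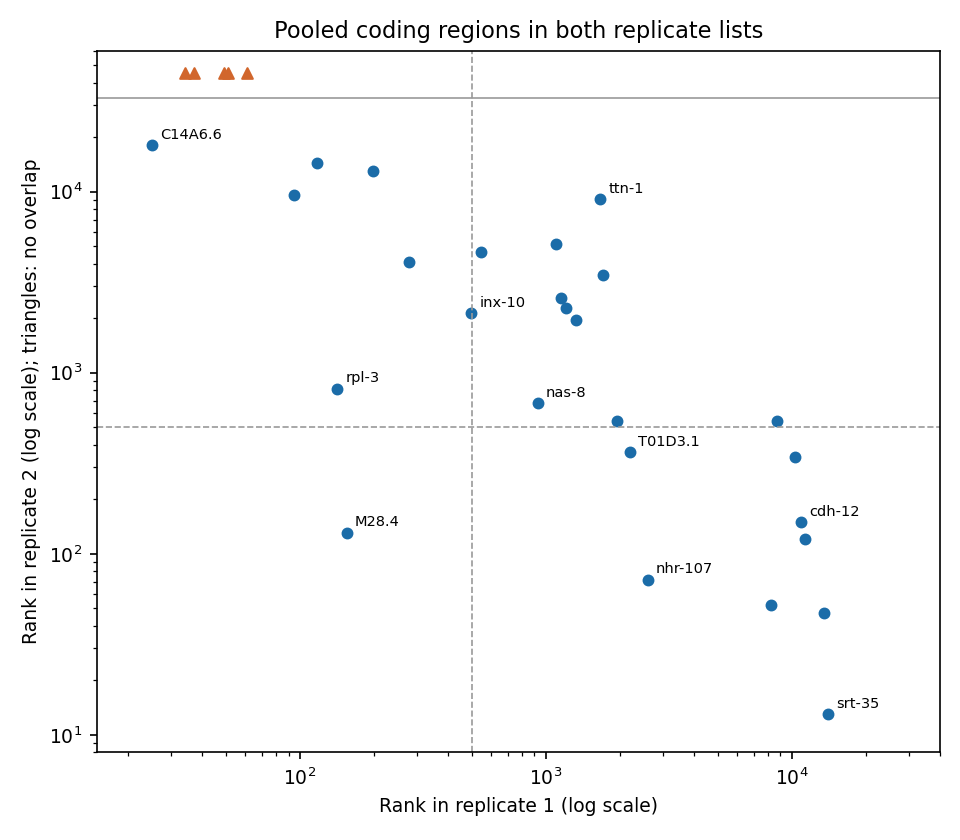
Ranks of the 31 pooled coding regions in replicate 1 (horizontal) and replicate 2 (vertical), both on log scales, where 1 is the highest signal; triangles at the top overlapped no region of replicate 2, and dashed lines mark rank 500. M28.4 is the 1 region below 500 on both axes, and C14A6.6 and srt-35 lie at opposite corners.

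Host genes with the most coding regions were long ones. ttn-1 held 17 regions in replicate 1 and 20 in replicate 2, which is 3.16 and 3.71 per 10 kb of its bases that met the rule, near the 3.02 and 3.45 of all genes. The extracellular matrix gene dig-1 held 9 and 9, at a density of 2.30 in each. unc-22, which encodes the giant kinase twitchin of the muscle sarcomere, held 11 and 7, at 5.604 and 3.57. unc-89, which encodes the obscurin-like protein of the sarcomere M-line, held 8 and 10, at 3.35 and 4.19, and F39C12.1 held 7 and 8, at 4.64 and 5.30. These hosts were picked for their many regions, and no interval was calculated for their densities, so none is set apart from all genes. The best rank in ttn-1 was 38 in replicate 1 and 3131 in replicate 2. Across genes grouped by length, the density ran from 2.67 in the longest to 3.31 in the shortest in replicate 1, and from 3.29 in the shortest to 3.59 in replicate 2.

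Gene families were compared by coding regions per 10 kb of bases that met the rule, which takes out gene length but not base composition. As given above, this density changed with GC content, and differently in the 2 replicates. The GC content of the families was not compared, so their densities cannot be told apart from differences in base composition. The serpentine chemoreceptors, the sensory receptor families of the worm and the largest list, had 249 regions in replicate 1 at a density of 3.53 (3.11 to 4.0), above that of all genes (3.02). In replicate 2 they had 204 at 2.89 (2.51 to 3.32), below that of all genes (3.45). The best of them was sre-19 at rank 117 in replicate 1 and srt-35 at rank 13 in replicate 2. C-type lectins, secreted sugar-binding proteins of which many act in immunity, went the other way, with 43 regions at 2.67 (1.93 to 3.60) and 66 at 4.10 (3.17 to 5.22). Their best were clec-36 at rank 34 and clec-185 at rank 53. Large matrix and adhesion proteins had 55 at 2.84 (2.14 to 3.70) and 81 at 4.19 (3.32 to 5.204), with unc-52, the perlecan of basement membranes, best at rank 174 in replicate 1 and cdh-12 best at 150 in replicate 2. For both families the intervals contain the density of all genes in both replicates, while those of the chemoreceptors exclude it in both, on opposite sides. Of 34 intervals, from 17 lists with such bases in 2 replicates, 4 excluded that density, with no adjustment for their number.

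Collagens, which build the cuticle and basement membranes, had 15 regions at 1.58 (0.883 to 2.60) in replicate 1 and 27 at 2.84 (1.87 to 4.13) in replicate 2. The interval of replicate 1 lay below the density of all genes, and that of replicate 2 contained it. Vitellogenins, the yolk proteins, had 3 and 4 regions at 1.16 (0.239 to 3.39) and 1.55 (0.421 to 3.96). Translation factors had 4 and 2 at 1.61 (0.439 to 4.12) and 0.805 (0.0975 to 2.91), so that in replicate 2 the interval lay below all genes. Muscle proteins had 47 and 56 regions at 3.37 (2.48 to 4.49) and 4.02 (3.04 to 5.22). Nuclear hormone receptors had 72 and 77 at 3.35 (2.62 to 4.22) and 3.58 (2.83 to 4.47), so neither list differed from all genes by more than counting error. Nor did F-box proteins, with 54 and 59 regions, cytochrome P450 genes, with 21 and 27, or MATH and BTB domain proteins, with 16 and 16.

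Small families gave too few regions to set apart. Ribosomal protein genes had 3 and 4 regions on 6400 bases that met the rule, and rpl-3 was the best in both replicates. Histone genes had 1 and 2, with hil-1 at rank 17046 and hil-8 at 16443 the best. The Wnt pathway had 10 and 10, led by the receptor genes cfz-2 at rank 1547 and mig-1 at rank 5911. Of the Sp and KLF factors, relatives of SPTF-1 itself, sptf-3 was a host in both replicates, at ranks 4147 and 7778. Heat shock proteins had 3 and 4 regions, and tubulins and actins 2 and 3. Major sperm protein genes had no base that met the rule.

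**Figure D5:**
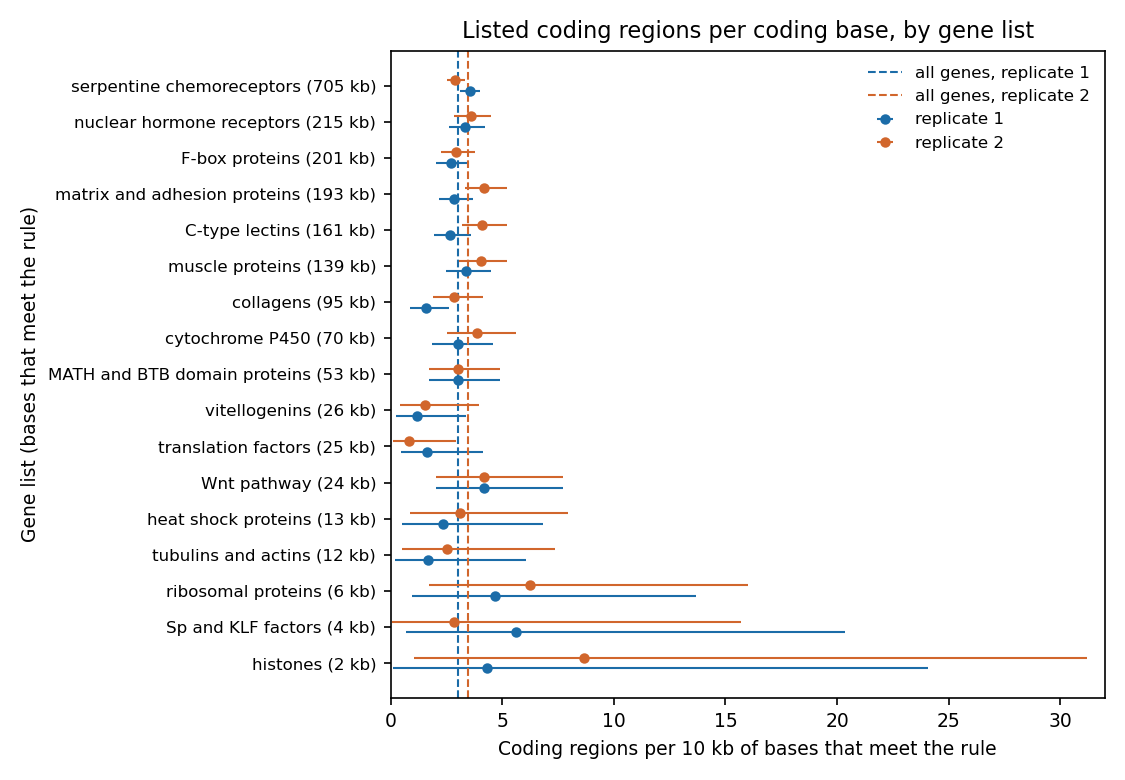
Coding regions per 10 kb of bases that met the rule (horizontal, with exact 95% Poisson intervals) for each gene list, in order of the bases it offered; dashed lines mark all genes at 3.02 in replicate 1 and 3.45 in replicate 2. Chemoreceptors lay above the line in replicate 1 and below it in replicate 2, and collagens lay below it in both, in replicate 2 by less than counting error.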

How the data were processed

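The deposited signal and the deposited −log10 q of each region were made by the authors' peak caller, with the scale of the signal not stated. In the pooled list the deposited −log10 q was treated as a score, because a few values lay below 0. Each replicate list was derived from its alignment and 1 further file shared by both replicates, per records deposited beside the lists. The sources used here name no aligner or peak caller. Lists on ce10 were not used.

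Summits were placed on the WBcel235 assembly with Ensembl release 115 annotation. GC content, soft-masked bases, 31-base words and GGGCGG were counted with numpy 2.4.6 and scipy 1.17.1 under Python 3.11.15, tables were joined with pandas 2.3.3, and the counting was tested on simulated lists. Regions overlapped when they shared 1 bp or more. The members, the 18 gene lists and the alternatives were chosen with earlier results of these data known. Named were all optimal IDR and up to 15 pooled coding regions, those with a q under 0.05, the 10 best shared pairs, the 5 hosts with most regions and the best of each list. The kinases src-1 and src-2 were taken out of the chemoreceptors.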

Additional observations from a re-analysis of the deposited data

How the results depend on the processing

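Of 48 alternatives, 38 moved a value by less than the spread between replicates and left its direction. Leaving out 1 of 2 replicates always moves a mean by less than that spread, so such runs could fail by direction only. Without them the count was 29 of 38. All alternatives but those without repeated 31-base words were planned. The unplanned ones, added after seeing the data, moved no value. The coding share was 21.99% with starts over 200 bp away and 12.01% with starts over 1000 bp away, where 20.4% and 10.9% of the genome met the rule. The GC difference was 7.43 points at 200 bp, 5.94 at 1000 bp, 5.94 with 50% of the region in coding sequence and 4.23 over the whole region. The overlap difference reversed to −0.0642 points at 200 bp. Its replicates had opposite signs under all 8 alternatives, leave-one-out runs counted separately. The difference in the top of the lists was −0.0161 points in the top 100 and reversed to 1.06 in the top 5000. With either replicate left out the overlap difference ran from −1.63 to 2.55, the coding share from 16.5 to 18.9%, the rank difference from 1.10 to 2.35, the top 500 difference from −0.234 to −0.118, and the GC difference stayed at 6.93. The cause was not tested, except that wider or narrower limits admit more or less coding sequence. No paired analysis was possible because both samples belong to 1 group. Without read counts the depth behind a signal is unknown.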
